A study of Mus musculus with 14 samples.

Results

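The nuclei described here are the cluster that the study's authors numbered 5 in their single-nucleus RNA measurement of mouse liver, 1 of 12 numbered clusters (called groups in the plots). They were taken by that number, as the pair of deposited values that give, for every gene, the mean level over the cluster's nuclei from Ms4a7 KO livers and from wild type (WT) livers. By the steps between these values the cluster held 87 nuclei, 30 from KO and 57 from WT. The number of nuclei in all 12 clusters together was not recovered. The KO nuclei came from 1 library that pooled 3 livers of Ms4a7 KO mice, and the WT nuclei from 1 library that pooled 3 livers of wild type mice. All of these mice had eaten a diet that gives nonalcoholic steatohepatitis (NASH), a fatty and inflamed liver, for 22 weeks, and nuclei were stained with propidium iodide and sorted from frozen tissue. Ms4a7 encodes a membrane protein of the MS4A family found in macrophages, and the labels do not say how the knockout was made. The series also holds 12 bulk liver libraries in 4 groups of 3. These are labelled Ms4a7 KO on the NASH diet, wild type on the NASH diet, wild type on chow given lipid droplets (LD) into the tail vein on 6 days in a row, and wild type on chow given phosphate-buffered saline (PBS) in the same way.

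Neutrophils are short-lived white blood cells made in bone marrow that enter inflamed tissue, where they engulf microbes, release stored proteases and make reactive oxygen. Their granule proteins are made in waves while the cell matures, with the primary granules filled before the secondary and the secondary before the tertiary, and mature cells transcribe little of the early sets. Neutrophil nuclei hold little RNA, so that single-nucleus methods give few molecules for each, and neutrophils are among the cells that gather in the liver in steatohepatitis.

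Each deposited value is a mean over nuclei of molecule counts (UMIs, unique molecular identifiers) scaled to 10000 in each nucleus, so that 1 molecule in 1 nucleus adds a step set by that nucleus' own total. In cluster 5 these steps were coarse. A single UMI was worth 0.227 to 0.652 UMIs per 10000 in the KO column and 0.0846 to 0.322 in the WT column, whereas the smallest value above 0 in any column of the other 11 clusters was at most 0.0450. The values shared by at least 20 genes were 10000 divided by a whole number for 30 nuclei in KO and for 57 in WT. They gave 30 different UMI totals in KO and 53 in WT, where 4 nuclei had no total of their own. The KO nuclei held 511 to 1469 UMIs each (median 882.5, 26567 in all), and the WT nuclei held 544 to 2073 (median 834, an estimated 52821 in all). For comparison, cluster 10, the only other cluster for which recovered numbers were kept, held 60 KO nuclei with a median of 3282 UMIs and 53 WT nuclei with a median of 3040. Of 21911 genes, 6417 were above 0 in the KO nuclei and 8039 in the WT nuclei, against 10600 to 19957 in the columns of the other clusters. A single UMI was all that was seen of 2560 genes in KO (39.9% of those above 0) and of 2486 genes in WT (30.9%).

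**Figure D1:**
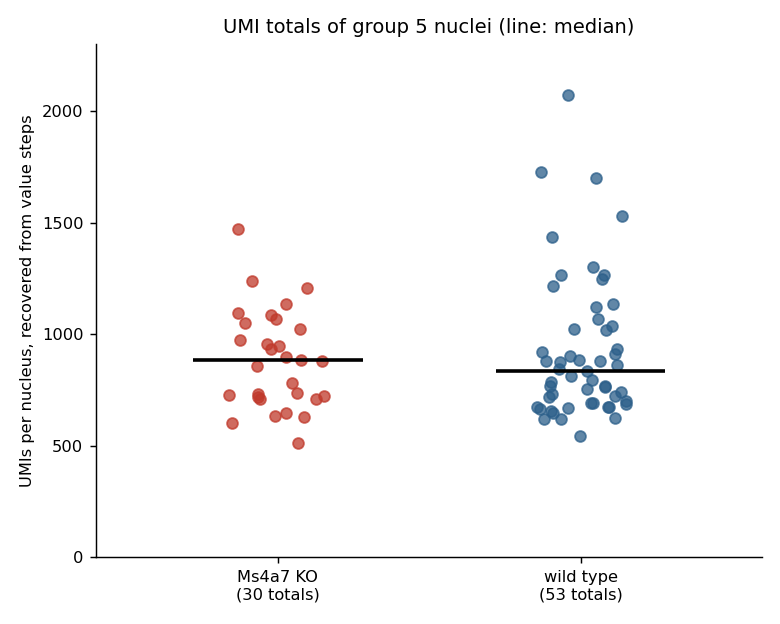
UMI totals of the cluster 5 nuclei (vertical axis, UMIs per nucleus), recovered from the steps of the deposited values, for 30 Ms4a7 KO nuclei and for the 53 different totals of the 57 wild type nuclei. The horizontal lines are medians, 882.5 in KO and 834 in wild type, and the wild type nuclei reach 2073 against 1469 in KO.

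The depth sets what can be said of any gene. A floor of 3 UMIs corresponds to a mean level of 1.13 UMIs per 10000 in the KO nuclei and 0.568 in the WT nuclei, and a gene listed at 0 may still have had a UMI in up to 10.0% of nuclei like these in KO and up to 5.26% in WT. Intervals given below use the exact method, at 95%, and cover counting error only. Those from estimated UMIs are approximate: Ngp in KO was estimated at 25.1 UMIs but decoded, as described below, at 39. With 1 library per genotype there was no replicate, and no difference between KO and WT nuclei was tested.

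All 6 of the neutrophil markers against which the label was checked were at their highest in the cluster. S100a9 and S100a8, the subunits of calprotectin, a calcium-binding protein that makes up much of the neutrophil cytosol, were at 69.4 and 31.7 UMIs per 10000 in the KO nuclei and at 49.1 and 33.4 in the WT nuclei. In no column of the other 11 clusters did S100a9 exceed 0.130 or S100a8 exceed 0.0759. Csf3r, the receptor of the growth factor G-CSF, was at 40.1 in KO and 53.8 in WT. Cxcr2, the receptor for the chemokines that draw neutrophils out of blood, was at 10.8 in KO and 6.97 in WT, and Mmp9, the gelatinase of tertiary granules, was at 6.72 in KO and 4.98 in WT. Ngp, a secondary granule protein, was at 9.46 in KO and at only 0.254 in WT. In both genotypes 5 of the 6 markers lay above the floor of 3 UMIs, while Ngp lay under it in WT. Since clusters are made and named from such genes, their levels describe the cluster and are no independent support for its name. In mm10 coordinates S100a8 lies on chromosome 3 (90668978 to 90670035), S100a9 on chromosome 3 (90692632 to 90695721, minus strand), Csf3r on chromosome 4 (126024550 to 126044440), Cxcr2 on chromosome 1 (74153989 to 74161246), Mmp9 on chromosome 2 (164940780 to 164955850) and Ngp on chromosome 9 (110419747 to 110423012).

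**Figure D2:**
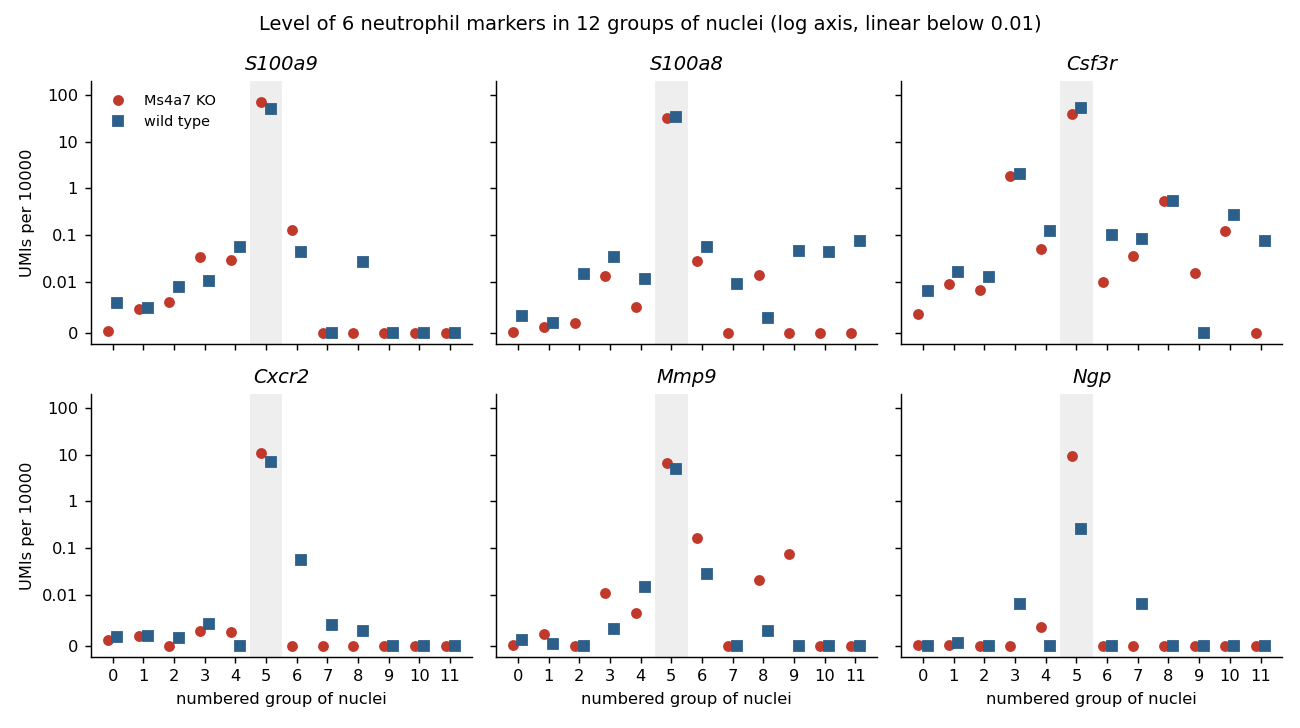
Level of 6 neutrophil markers (vertical axis, mean UMIs per 10000, log axis that is linear below 0.01) in the 12 numbered clusters (horizontal axis), with red circles for Ms4a7 KO nuclei and blue squares for wild type nuclei. Cluster 5, shaded, holds the highest point of every marker in both genotypes, and Ngp is at 9.46 in KO and 0.254 in wild type there.

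The start regions of 5 of these genes are shown because they carry the cluster's identity (S100a9, S100a8 and Csf3r) and the difference between genotypes described further on (Ngp and Ltf). Each line gives the 250 bases before the RefSeq start of the gene (GRCm38.p6, read 5′ to 3′ on the gene's strand), with capitals for a match to TTGCNNAA, bound by C/EBP factors, or to GAGGAAG, bound by PU.1, on either strand. The windows are chr3:90695722-90695971 (minus strand), chr3:90668821-90669070, chr4:126024409-126024658, chr9:110419558-110419807 and chr9:111019042-111019291 (plus strand).
S100a9: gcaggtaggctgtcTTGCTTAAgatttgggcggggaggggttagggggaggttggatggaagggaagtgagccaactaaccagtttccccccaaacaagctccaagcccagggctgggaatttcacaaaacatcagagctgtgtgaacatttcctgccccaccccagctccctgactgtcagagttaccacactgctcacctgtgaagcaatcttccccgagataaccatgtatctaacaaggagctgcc
S100a8: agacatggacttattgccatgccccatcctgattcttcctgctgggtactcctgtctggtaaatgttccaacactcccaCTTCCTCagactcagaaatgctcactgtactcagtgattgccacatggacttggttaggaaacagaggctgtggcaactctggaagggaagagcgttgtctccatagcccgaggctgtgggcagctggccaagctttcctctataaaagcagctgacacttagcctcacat
Csf3r: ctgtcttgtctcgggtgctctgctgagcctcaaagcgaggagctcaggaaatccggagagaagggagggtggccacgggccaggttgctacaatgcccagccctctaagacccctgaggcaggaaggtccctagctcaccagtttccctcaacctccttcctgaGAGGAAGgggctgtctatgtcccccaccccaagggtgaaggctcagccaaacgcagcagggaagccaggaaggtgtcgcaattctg
Ngp: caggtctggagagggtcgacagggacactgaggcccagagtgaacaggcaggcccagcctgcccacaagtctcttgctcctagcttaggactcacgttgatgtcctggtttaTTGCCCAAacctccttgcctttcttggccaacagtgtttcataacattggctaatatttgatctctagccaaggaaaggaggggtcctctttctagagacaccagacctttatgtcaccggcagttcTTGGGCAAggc
Ltf: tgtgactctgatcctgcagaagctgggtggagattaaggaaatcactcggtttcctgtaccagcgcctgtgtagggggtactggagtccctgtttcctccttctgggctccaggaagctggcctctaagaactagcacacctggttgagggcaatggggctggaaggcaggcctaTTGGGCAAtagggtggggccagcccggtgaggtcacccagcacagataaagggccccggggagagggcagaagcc
S100a9 held 1 C/EBP match, which began 236 bases before the start, S100a8 held 1 PU.1 match 171 bases before it, and Csf3r 1 PU.1 match 86 bases before it. Ngp held 2 C/EBP matches, 138 and 11 bases before the start, and Ltf held 1, 75 bases before it. The RefSeq starts of S100a8, Csf3r and Ngp lie inside the mm10 gene coordinates given above, which place the gene starts earlier. By those coordinates the Csf3r match and the nearer Ngp match lie within the gene. Of the 30 leading genes named in the next paragraph, 28 had a promoter in the table, and 7 of these (25%) held the C/EBP letters, against 9.56% of all 32851 promoters of the same length. The PU.1 letters were in 8 of the 28 (28.6%), against 10.6% of all promoters, and 2 of the 28 held both. A match describes the letters in the window and does not show binding.

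Beyond the markers, a gene was called a leading gene of the cluster where its level was at least 4 times that of the highest other cluster in both genotypes and averaged at least 0.5 UMIs per 10000. Of 4041 genes at that level, 53 (1.31%) met this rule. Since the clusters were made from the same genes, this is a description and not a test. The 30 leading genes with the largest ratios, without unnamed gene models, held several roles known in neutrophils. Among secreted signals, Il1b, the precursor of interleukin 1 beta, was at 23.0 UMIs per 10000 in the KO nuclei and 16.5 in the WT nuclei, 28 times the mean of cluster 3, the next highest. Il1f9, which encodes interleukin 36 gamma, was at 2.97 in KO and 5.0 in WT. Among receptors, Clec4d, a C-type lectin receptor for mycobacterial glycolipid, was at 5.61 in KO and 4.68 in WT, and Il1r2, the decoy receptor that binds interleukin 1 without signalling, was at 1.02 in KO and 2.32 in WT. Ccr1, a chemokine receptor, was at 3.16 in KO and 2.51 in WT.

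The other leading genes included enzymes and stored proteins. Acod1, which makes itaconate, was at 6.07 in KO and 3.09 in WT. Padi4, the enzyme that converts arginine to citrulline in histones and is needed for neutrophil extracellular traps, was at 3.22 in KO and 2.24 in WT. Alox5, the 5-lipoxygenase of leukotriene synthesis, was at 2.55 in KO and 4.24 in WT, and Ptgs2, the inducible cyclooxygenase, was at 1.42 in KO and 0.750 in WT. Both enzymes were at least 7 times the next highest cluster. Slc7a11, the cystine transporter that feeds glutathione synthesis, was at 9.32 in KO and 7.71 in WT, and Slfn4, a Schlafen gene induced in myeloid cells by interferon, was at 11.4 in both. Mmp8, the neutrophil collagenase, was at 1.0 in KO and 1.02 in WT, and these levels rest on few molecules, 3 UMIs in 3 different KO nuclei. Retnlg, a resistin-like secreted protein, was at 6.2 in KO and 2.24 in WT, and Lcn2, lipocalin 2, which binds bacterial siderophores, was at 3.51 in KO and 1.16 in WT. Near the limit of the rule, Ncf1 was called at 4.30 times and Fbxl5 at 4.28 times the next highest cluster.

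By rank across all genes the cluster was most like cluster 3, the one with the highest level of the macrophage gene Ms4a7 (Spearman's rho 0.74 across 17987 genes, a description, since genes share libraries and depth), whereas of its 100 highest genes more were shared with the 100 highest of cluster 9 (43) than of cluster 3 (38). Of its 2000 highest genes, 667 were at their highest in cluster 5. Wider lists of neutrophil genes gave more detail on what the nuclei transcribed.

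Many of the listed receptor and adhesion genes were at their highest in the cluster. Of 18 pattern and immune receptors in the table, 15 were at their highest in cluster 5. For scale here and below, so were 667 of its 2000 highest genes and 7 of 16 hepatocyte genes. Being highest in cluster 5 is thus no trait of neutrophil genes alone, and the share over all genes was not computed. The receptor list summed to 63.2 UMIs per 10000 in KO and 44.0 in WT, against 26.9 and 24.3 in KO and WT of cluster 3, the next highest. Its inhibitory members included Pirb, at 8.71 in KO and 2.71 in WT, Lilr4b, at 10.8 in KO and 5.24 in WT, and Cd300lf, at 6.73 in KO and 9.51 in WT. Tlr4, the receptor of bacterial lipopolysaccharide, was at 2.62 in KO and 2.29 in WT, whereas Tlr2 and Fcgr4 were listed at 0 in both. Among chemoattractant receptors, 7 of 9 were highest in the cluster. Ptafr, the receptor of platelet-activating factor, was at 3.95 in KO and 1.27 in WT. C5ar1, the complement C5a receptor, was at 1.51 in KO and 1.63 in WT, and Cxcr4, which holds neutrophils in bone marrow, was at 1.80 in KO and 2.02 in WT. Of 12 growth factor and cytokine receptors 7 were highest in the cluster, but only Csf3r and Il1r2 were so by 4-fold. Csf2rb, the shared beta chain of GM-CSF, interleukin 3 and interleukin 5 receptors, was at 4.52 in KO and 1.31 in WT, against a mean of 1.94 in cluster 10. Of 17 adhesion and migration genes, 10 were highest in cluster 5, but none met the 4-fold rule of the leading genes. That list summed to 125.4 in KO and 129.0 in WT, against 101.1 and 100.3 in KO and WT of cluster 6, the next highest. Itgam, which encodes CD11b, was at 7.16 in KO and 5.95 in WT, and Selplg, the ligand of selectins, at 3.14 in KO and 6.44 in WT.

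Effector genes were a mixed set. Of 10 genes of the oxidative burst, 5 were highest in cluster 5. Ncf1, a cytosolic subunit of the NADPH oxidase, was at 5.27 in KO and 4.27 in WT. Cybb, the membrane-bound catalytic subunit of that oxidase, was at 5.93 in KO and 1.36 in WT, and Cyba, the partner of Cybb, at 1.14 in KO and 3.42 in WT. Among inflammasome genes Nlrp3, the sensor named in the series title, was at 1.82 in KO and 1.58 in WT, and its 5 UMIs in KO lay in 4 nuclei. Casp4 was at 3.08 in KO and 1.10 in WT, Casp1 at 0.308 in KO and 0.608 in WT, and the adaptor Pycard was listed at 0 in both. Other cytokine genes were few: Csf1, the macrophage growth factor, was at 6.6 in KO and 6.40 in WT, Ccl6 at 6.25 in KO and 1.95 in WT, and Tnf at 1.73 in KO and 0.237 in WT. The 5 UMIs of Tnf in KO lay in 2 nuclei, and its value in WT was 1 UMI.

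Signalling and transcription factor genes were mostly shared with other clusters. Of 15 neutrophil transcription factors, 8 were highest in cluster 5, among them Spi1, which encodes PU.1, at 4.58 in KO and 4.03 in WT, and Cebpb at 2.12 in KO and 1.62 in WT. Cebpe, the factor that drives secondary granule genes, had 2 UMIs in 1 KO nucleus and none in WT, and Cebpa was listed at 0 in both. NF-kappaB and stress response genes summed to 42.1 in KO and 21.8 in WT, with Tnfaip2 at 11.3 in KO and 6.12 in WT and Nfkbia, the inhibitor of NF-kappaB, at 4.59 in KO and 2.77 in WT. Genes of the type I interferon response summed to 40.5 in KO and 28.5 in WT. Among them Oasl2 was at 4.46 in KO and 3.56 in WT, and Isg15 at 0 in KO and 0.313 in WT. Of survival genes, Mcl1, the protein on which neutrophil survival depends, was at 8.38 in KO and 7.87 in WT. Glycolysis genes summed to 13.4 in KO and 18.1 in WT, and of genes of cell division the list held 10, all at 0 in KO and all but Tuba1b at 0 in WT.

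Of other cell types, macrophage markers were low in the cluster and hepatocyte transcripts were high. The 14 markers of macrophages and Kupffer cells summed to 3.58 in KO and 5.77 in WT, against 72.4 in KO and 53.3 in WT of cluster 3, and Clec4f, Timd4, C1qa, C1qb, Cd163, Marco and Folr2 were at 0 in both genotypes. Ms4a7 was itself at 0 in KO and WT nuclei of cluster 5, and at 0.622 in KO and 1.25 in WT of cluster 3. Trem2 and Gpnmb, markers of lipid-associated macrophages, each had 1 UMI in the cluster, Gpnmb in KO and Trem2 in WT. The 11 monocyte genes summed to 5.73 in KO and 3.36 in WT, against 10.3 in KO and 14.2 in WT of cluster 3. Fn1 was at 2.30 in KO and 1.39 in WT, Nr4a1 at 1.87 in KO and 0.297 in WT and Treml4 at 1.56 in KO and 1.28 in WT, of which Nr4a1 and Treml4 were highest in cluster 5, while Ccr2, Cx3cr1, F13a1, Ace and Clec4a3 were at 0 in both genotypes. Of 9 eosinophil, basophil and mast cell markers, 6 were at 0 in both genotypes. Ms4a2, a subunit of the IgE receptor, had 3 UMIs, all in the KO nucleus with 896 UMIs, which also held the 4 UMIs that KO had of Skap1, a T cell gene. Siglecf, an eosinophil gene, had 3 UMIs in KO, 2 in the nucleus with 1051 UMIs and 1 in that with 896, and 1 UMI in WT.

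Hepatocyte transcripts, by contrast, summed over 16 genes to 253 UMIs per 10000 in the KO nuclei and 116 in the WT nuclei, a 2.17-fold difference. Alb, serum albumin, was at 39.9 in KO and 14.5 in WT, and Apoe at 46.5 in KO and 19.7 in WT. Alb was highest in cluster 1, whereas Apoe was highest in cluster 5, at a mean of 33.1 over the genotypes, with cluster 3 next at 30.7. The same sum was higher in KO than in WT in each of the other 11 clusters, by 1.37 to 2.56 times, and in cluster 1, the highest, it was 283 in KO and 152 in WT. Hepatocyte transcripts were thus higher in KO, as were some of the genes described next, while others of those genes were lower. The part of hepatocyte transcripts in the differences between genotypes was not tested. The nuclear RNA Gm42418, a gene model that overlaps ribosomal RNA sequence, moved the other way, at 87.0 in KO and 195.6 in WT, and was lower in KO in each of the 11 other clusters as well.

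The comparison of KO with WT nuclei asks how neutrophils of a steatohepatitic liver differ when Ms4a7, which they did not detectably transcribe here, is lost. Among the 2000 genes of highest level in the cluster, 270 (13.5%) were at least 2 times as high in KO as in WT and 226 (11.3%) were at most 1/2 as high, on the scale of log2(level + 0.144), which understates the ratios of low genes. The median log2 ratio was 0.02. In all, 24.8% of these genes lay past 2-fold, against 1.15% to 8.60% of the 2000 highest genes of each other cluster. The median gene among the 2000 rested on an estimated 6.15 UMIs in KO and 12.1 in WT, and of the 100 highest genes, with medians of 34.9 and 74.5 UMIs in KO and WT, 5 were past 2-fold upward and 4 downward.

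Of the 6 markers, only Ngp, described next, lay past 2-fold between the genotypes. S100a8 was 0.951 times as high in KO as in WT (interval 0.723 to 1.24, from estimated UMIs), S100a9 1.41 times (1.16 to 1.71), Csf3r 0.746 times (0.594 to 0.939), Cxcr2 1.54 times (0.924 to 2.60) and Mmp9 1.34 times (0.711 to 2.61). The intervals of S100a8, S100a9 and Csf3r do not reach a 2-fold difference, whereas those of Cxcr2 and Mmp9 do. Those of S100a9 and Csf3r do not include a ratio of 1. All of them treat UMIs as independent and come from 1 library per genotype, so they do not show that the genotypes differ. Of the 30 leading genes 28 were among the 2000, and 3 of them were past 2-fold upward (Ltf, Retnlg and Lcn2) and 2 downward (Il1r2 and Lilra6), with a median log2 ratio of 0.26. Il1b was 1.39 times as high in KO (0.988 to 1.96), and Slfn4 0.997 times (0.619 to 1.57).

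Ngp had the largest ratio on the side higher in KO (log2 ratio 4.59), though with a pseudocount of 0.1 Gstz1 (4.81) came above Ngp (4.76). Of 7 primary and secondary granule genes among the 2000, 6 were at least 2 times as high in KO as in WT and none was lower. Their median log2 ratio was 3.28, and the list summed to 43.5 UMIs per 10000 in KO and 10.1 in WT. The 2000 genes were chosen by the mean of KO and WT, down to a mean of 1.19. All 6 of the genes higher in KO lay under 1.19 in WT and so entered through their KO level. Their number and the median are therefore partly set by that choice. Ltf, lactoferrin, which binds iron, was at 8.81 in KO and 0.677 in WT. Chil3, a chitinase-like protein, was at 3.73 in KO and 0.254 in WT, and Camp, the precursor of the antimicrobial peptide cathelicidin, at 2.30 in KO and 0.0846 in WT. Lyz2, lysozyme, was at 7.33 in KO and 0.718 in WT, although it was higher in cluster 3 than here, and Lcn2 is given above. Hp, haptoglobin, which hepatocytes also make, was the member that did not differ 2-fold, at 7.56 in KO and 6.98 in WT. The primary granule genes Mpo, Elane and Prtn3 were at 0 in both genotypes.

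Because each nucleus has its own UMI total, the values of low genes could be turned back into whole UMIs in single nuclei. The search tried up to 6 UMIs and, where that failed, up to 3 nuclei. Ngp, Ltf, Camp and Chil3 in KO were placed by the second step, each with 1 solution. Spreads of more than 6 UMIs over more than 3 nuclei were not tried, so these placements hold only within that limit. By this decoding, all but 1 of the 39 Ngp UMIs in KO lay in 2 of the 30 nuclei, those with the largest totals. The nucleus with 1469 UMIs held 29 of them, the nucleus with 1236 UMIs held 9, and the nucleus with 729 UMIs held 1. The same pair held every UMI of Ltf (21 and 15), Camp (3 and 6) and Chil3 (1 and 13), and the nucleus with 1236 UMIs held the 3 UMIs of Cd177, a surface protein stored in secondary granules. Lyz2 and Lcn2, also past 2-fold, could not be decoded in KO by a search of up to 3 nuclei, so where their UMIs lay is not known. Both UMIs of Cebpe lay in the nucleus with 1469 UMIs. These 2 nuclei are 6.67% of the 30 KO nuclei. They were picked after their UMIs were seen and come from 1 pooled library, so this share is no estimate for KO livers. In all, 10 genes with at least 3 UMIs were confined to this pair, and Ica1, Aff2, Hbb-bs, Adpgk, Ctse, Rev1 and Tmem45a2 were the others beside the 3 granule genes. In WT these 4 granule genes had few UMIs. Ltf had 4 or 6, Camp had 1 UMI, in the nucleus with 2073 UMIs, and Ngp and Chil3 each had either 3 UMIs in that nucleus or 1 in the nucleus with 691, a choice the value does not settle.

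By UMIs, Ngp made up a share of all UMIs in the KO nuclei that was 25.8 times that in the WT nuclei (8.22 to 131), Ltf 11.9 times (4.98 to 34.6), Chil3 9.28 times (2.59 to 50.4) and Camp 17.9 times (2.48 to 784), with the larger of the possible UMI numbers in WT. These intervals treat UMIs as independent, which molecules of the same 2 nuclei are not. Without that pair the remaining 28 KO nuclei held Ngp at 0.490 UMIs per 10000, against 0.254 in WT, and Ltf, Chil3 and Camp at 0, against 0.677, 0.254 and 0.0846 in WT. Leaving these nuclei out was chosen after the values were seen. Since by the decoding they hold every UMI that KO had of Ltf, Chil3 and Camp, the values of 0 follow from that choice. Ngp was then within 2-fold of WT, and it rested on 1 UMI.

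**Figure D3:**
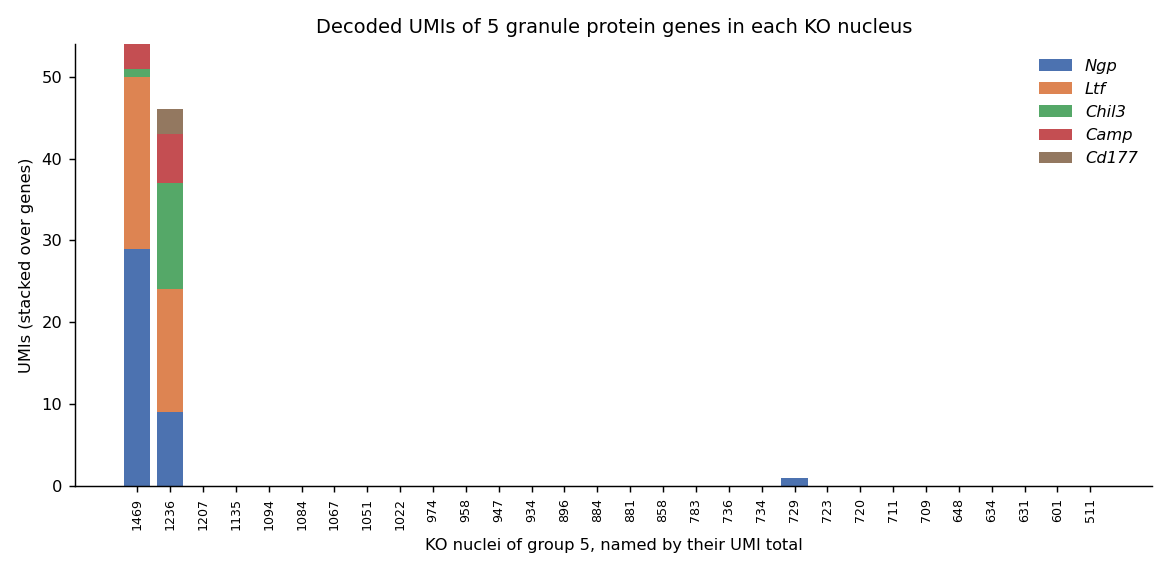
UMIs of 5 granule protein genes (vertical axis, stacked) in each of the 30 Ms4a7 KO nuclei of cluster 5 (horizontal axis, named by UMI total, largest at left), recovered from the deposited means. The nuclei with 1469 and 1236 UMIs hold all of these UMIs but 1, which is an Ngp UMI in the nucleus with 729. Ngp, Ltf, Camp and Chil3 were placed by a search of up to 3 nuclei, and wider spreads were not tried. Lyz2 and Lcn2, which could not be decoded in KO, are not shown.

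Of the other genes with the largest ratios on the side higher in KO, Serpina1c, an alpha-1-antitrypsin gene of the hepatocyte list, was at 14.4 in KO and 1.18 in WT, and its log2 ratio of 3.45 stood beside 1.71 to 2.76 in the other clusters. It rested on an estimated 38.2 UMIs in KO and 6.25 in WT, and the rest of these genes on fewer than 10 in KO. Serpina1d was at 2.44 in KO and 0.155 in WT. Gnmt, glycine N-methyltransferase, was at 3.03 in KO and 0.141 in WT and was higher in KO in all of the other 11 clusters too. Gstz1, Acad8 and Slc38a1 were at 0 in WT, and their levels in KO were 4.78, 4.60 and 4.56 times the floor of 3 UMIs over the WT nuclei. With counting error in KO, the interval of the UMI ratio began at 2.87 for each of these genes. By the search of up to 3 nuclei, the 8 UMIs of Slc38a1, an amino acid transporter, lay in 2 KO nuclei, 6 in 1 of them. Mrgpra2b, a receptor of the Mrgpr family, was at 3.02 in KO and 0.135 in WT, and in WT that was 1 UMI.

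On the side lower in KO, Camk2d, a calcium-dependent kinase, was at 0 in KO and 3.67 in WT. That WT level was 3.25 times the floor of 3 UMIs over the KO nuclei (interval of the UMI ratio 0 to 0.426). Pja2, Sh3bgrl, Rad51b, Rnf125 and Glis3 were likewise at 0 in KO, and their WT levels were 2.55, 2.52, 2.39, 2.28 and 2.15 times that floor. The intervals of their UMI ratios ended at 0.554 for Pja2 and Sh3bgrl, 0.599 for Rad51b and Rnf125 and 0.652 for Glis3. Rnf144a, a ubiquitin ligase, was at 0.555 in KO, which was 1 UMI, and at 5.67 in WT, a log2 ratio of -3.06 (interval of the UMI ratio 0.00162 to 0.399). Zfp148, Slain2 and Rpl41 also had 1 UMI each in KO, at levels of 0.276, 0.227 and 0.378 in KO and of 3.06, 2.35 and 3.11 in WT, while Fam120b and Rps6ka3 were at 0.312 and 0.469 in KO and at 2.35 and 3.20 in WT. For Slain2 and Fam120b the interval of the ratio, 0.00388 to 1.12, includes no difference. None of the 12 genes belonged to a list of neutrophil genes.

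The members of the role lists are given here beside the shares of all 2000 genes past 2-fold, 13.5% upward and 11.3% downward, and beside 105 upward and 46 downward of the 667 genes highest in cluster 5. Among 12 pattern and immune receptors in the 2000, 5 were past 2-fold upward (Pirb, Lilr4b, Pilra, Clec4e and Pilrb1) and none downward, with a median log2 ratio of 0.60. Clec4e, a receptor for damaged-cell and mycobacterial ligands, was at 5.62 in KO and 1.18 in WT. Of 11 growth factor and cytokine receptors 4 were past 2-fold upward (Il1rap, Csf2rb, Csf2ra and Ifngr1) and 1 downward (Il1r2). Of 9 NF-kappaB and stress genes 3 were past 2-fold upward, Nfkbiz, Nfkb1 and Sod2, with a median of 0.70. Among 7 tertiary granule and S100 genes, S100a6 and Anxa1 were past 2-fold upward and none downward, and among 7 oxidative burst genes Cybb was upward and Cyba downward. Neither the transcription factors, with 10 members in the 2000, nor the 10 mitochondrially encoded genes held a gene past 2-fold. Of 16 adhesion genes 2 were past 2-fold upward, Itgb2 and Ceacam1, and 2 downward, Itga4 and Selplg, and of 15 hepatocyte genes 8 were upward and none downward, with a median of 1.01.

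**Figure D4:**
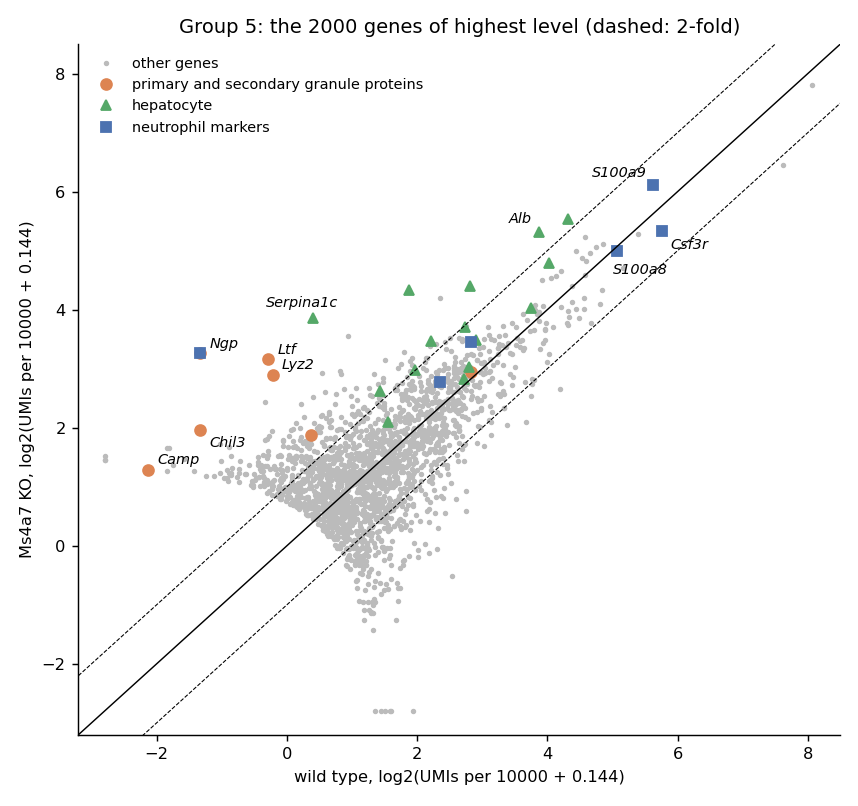
Levels of the 2000 highest genes of cluster 5 in Ms4a7 KO nuclei (vertical axis) and in wild type nuclei (horizontal axis), both as log2(UMIs per 10000 + 0.144), with the diagonal as a solid line and 2-fold differences as dashed lines. Orange circles are primary and secondary granule genes, green triangles hepatocyte genes and blue squares the neutrophil markers, with Ngp, which is in both sets, drawn as a square. Ngp, Ltf, Lyz2, Chil3 and Camp lie above the upper dashed line and S100a8, S100a9 and Csf3r lie near the diagonal.

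The bulk libraries show whether the same genes differed in whole liver, where fewer neutrophils and less RNA per neutrophil cannot be told apart. Their labels need care. Ms4a7 was at 102.0, 117.0 and 135.9 normalized counts in the libraries labelled KO, against 9.70, 25.8 and 23.3 in those labelled WT, which goes against the genotype labels, and the header of that table calls its columns untreated and treated. In the other table Ms4a7 was at 10.5, 7.60 and 9.32 in the libraries labelled LD and at 62.2, 84.7 and 163.0 in those labelled PBS. The names the submitters gave the tables also cross the labels: that with columns labelled KO and WT is named for LD, and that with columns labelled LD and PBS is named for Ms4a7. Whether the labels of the tables were exchanged was not tested, so it is not settled which of them compares the knockout, and each direction below belongs only to the libraries that carry the label. Differences were tested with limma on log2(normalized count + 1) over every gene that reached 10 normalized counts in no fewer than 3 libraries of its table, with Benjamini-Hochberg adjustment. Normalized counts are reads divided by a library's size factor, and the libraries held 21945394 to 23126164 reads in genes in the table labelled KO and WT and 39318264 to 41346464 in the other.

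Several leading genes of cluster 5, among them Csf3r and Il1b, were higher in the bulk libraries labelled KO. Csf3r was at 231, 489 and 494 normalized counts in the libraries labelled KO, against 49.7, 67.1 and 100.4 in those labelled WT. The labels did not overlap, and the log2 fold change was 2.44 ± 0.36 (SE, adjusted p = 0.0156 with limma). The call ended without KO replicate 2 (adjusted p = 0.0672), KO replicate 3 (0.0575) or WT replicate 2 (0.0519). S100a9 was at 23.3, 72.1 and 77.2 in the libraries labelled KO, against 8.49, 14.2 and 3.67 in those labelled WT, without overlap, with a log2 fold change of 2.56 ± 0.59 that missed the threshold (adjusted p = 0.0606 with limma, 0.0492 with edgeR on recovered reads). Cxcr2, at 6.14, 10.6 and 15 in the libraries labelled KO, against 3.64, 2.58 and 3.67 in those labelled WT, and S100a8, at 4.92, 41.4 and 39.2 in the libraries labelled KO, against 3.64, 7.75 and 2.45 in those labelled WT, were too low to be tested. Mmp9 was at 14.7, 18.9 and 44.9 in the libraries labelled KO, against 8.49, 9.04 and 2.45 in those labelled WT and did not pass (adjusted p = 0.151 with limma). Ngp varied within both labels, at 1.23, 30.7 and 12.7 in the libraries labelled KO, against 1.21, 16.8 and 1.22 in those labelled WT (adjusted p = 0.668 with limma), and Ltf was at most 3.55 in any library. Of 6 tested genes of the primary and secondary granule list, Lyz2 and Hp rose in the libraries labelled KO and none fell. Over all 15827 tested genes 3.02% rose and 0.701% fell. Neither of the 2 is particular to neutrophils, since Lyz2 was higher in cluster 3 than in cluster 5 and hepatocytes also make Hp.

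Il1b was at 214, 429 and 221 normalized counts in the libraries labelled KO, against 13.3, 40.0 and 31.8 in those labelled WT, a log2 fold change of 3.35 ± 0.44 (adjusted p = 0.0122 with limma). That call held in all 6 fits that left out 1 library. Acod1 was at 195, 339 and 268 in the libraries labelled KO, against 1.21, 0 and 2.45 in those labelled WT, a log2 fold change of 7.06 ± 0.48 (adjusted p = 0.00197 with limma). Clec4d was at 14.7, 18.9 and 18.4 in the libraries labelled KO, against 2.42, 1.29 and 0 in those labelled WT, with a log2 fold change of 3.20 ± 0.58 (adjusted p = 0.0313 with limma), and the call ended without WT replicate 2 (adjusted p = 0.0585). Macrophages and monocytes transcribe these 3 genes as well.

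Of the 30 leading genes 13 could be tested in this table, and 4 of them rose in the libraries labelled KO (Csf3r, Il1b, Clec4d and Acod1) and none fell, where over all 15827 genes 3.02% rose and 0.701% fell. Acod1 and Clec4d, and Clec4e named below, reached 10 normalized counts only in the libraries labelled KO. They could be tested only because they were high there, and how many other members entered in this way was not counted. The median log2 fold change of the 13 was 1.82, against -0.02 over all genes. By role, 5 of 7 tested chemoattractant receptors rose, 11 of 18 pattern and immune receptors, 11 of 17 adhesion genes and 7 of 10 oxidative burst genes, and no gene of these lists fell. Beyond the leading genes, the largest changes among called members were those of Clec4e, at 17.2, 49.6 and 88.7 in the libraries labelled KO against 1.21, 0 and 1.22 in those labelled WT (log2 fold change 4.68 ± 0.67), and of Lyz2, at 9025, 13990 and 17140 in the libraries labelled KO, against 612, 944 and 856 in those labelled WT (4.03 ± 0.25). C5ar1, Fpr2, Trem3, Itgam, Fgr, Relb, Csf2rb2, Tlr2, Ptafr and Tnf followed, at 2.86 to 3.58 on the log2 scale. Single libraries decided 5 of these calls, which ended without KO replicate 2 (C5ar1, Fpr2 and Fgr), KO replicate 3 (C5ar1 and Fpr2), KO replicate 1 (Fpr2), WT replicate 1 (Ptafr), WT replicate 2 (Ptafr) or WT replicate 3 (Fpr2 and Tnf), with adjusted p of at most 0.0870 with limma. Markers of macrophages and Kupffer cells rose with them, 9 of 14, as did 5 of 9 tested monocyte genes, and the part of those cells in the neutrophil lists was not tested. The number of genes called in this table, 589, was 108 without KO replicate 2, 148 without KO replicate 3 and 317, 323 and 307 without WT replicates 1, 2 and 3.

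**Figure D5:**
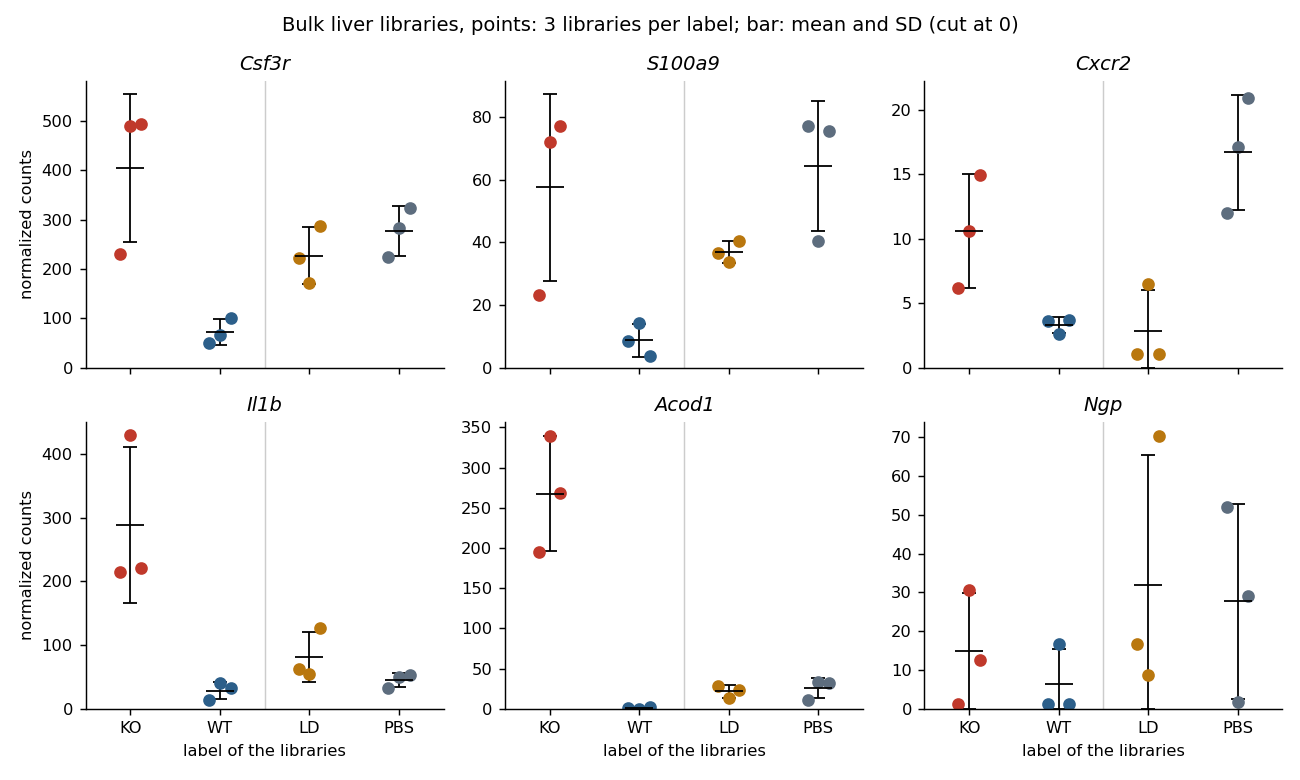
Normalized counts (vertical axes, from 0) of 6 genes of cluster 5 in bulk liver libraries, with 3 points per label and bars for mean and SD, cut at 0. From left to right are the libraries labelled KO, WT, LD and PBS, and the first pair and the second pair come from tables scaled separately. Csf3r, S100a9, Il1b, Acod1 and Cxcr2 do not overlap between the libraries labelled KO and WT, whereas Ngp does.

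In the table labelled LD and PBS few of the neutrophil genes passed the test. None of the 6 markers passed the test with limma or edgeR, 2 had an unadjusted p under 0.05, and DESeq2 called 1. Cxcr2 was at 1.05, 6.51 and 1.04 normalized counts in the libraries labelled LD, against 12, 17.1 and 20.9 in those labelled PBS, without overlap, with a log2 fold change of -2.46 ± 0.69 (adjusted p = 0.0870 with limma, 0.0480 with DESeq2). S100a9 was at 36.7, 33.6 and 40.4 in the libraries labelled LD, against 77.2, 40.6 and 75.6 in those labelled PBS (adjusted p = 0.226 with limma). Csf3r was at 221, 173 and 287 in the libraries labelled LD, against 224, 284 and 323 in those labelled PBS, and the labels overlapped. Of the 15 leading genes tested, none rose and 2 fell in the libraries labelled LD, where over all 14900 genes 1.95% rose and 2.21% fell. Dhrs9, a retinol dehydrogenase, was at 164, 141 and 92.1 in the libraries labelled LD, against 343, 454 and 405 in those labelled PBS, a log2 fold change of -1.62 ± 0.22 (adjusted p = 0.00587 with limma) that held in all 6 fits without 1 library. Lcn2, which hepatocytes also secrete, was at 5437, 5389 and 5480 in the libraries labelled LD, against 10407, 7242 and 10559 in those labelled PBS (log2 fold change -0.77 ± 0.14, adjusted p = 0.0187 with limma), and its call ended without LD replicate 1, LD replicate 2, PBS replicate 1 or PBS replicate 3 (adjusted p = 0.0548 to 0.0799). Of the granule genes, Ngp was at 16.8, 8.68 and 70.4 in the libraries labelled LD, against 52.2, 1.80 and 29.1 in those labelled PBS, again with libraries of either label both high and low. The number of genes called in this table, 620, was 228 without LD replicate 1, 206 without LD replicate 2, 1205 without LD replicate 3, 410 without PBS replicate 1, 135 without PBS replicate 2 and 169 without PBS replicate 3.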

How the data were processed

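RNA of mouse liver was measured in single nuclei and in bulk. Per the submitters' processing notes, the tools included STAR, DESeq2, Cell Ranger and Seurat 4.0.1, and the build was mm10. How each was set, and which annotation was used, is not given in the sources used here. The deposited signal values of nuclei were made by the authors as means, per numbered cluster and genotype, of UMIs scaled to 10000 (read from the values, since every column sums to that), and those of bulk libraries as counts divided by size factors (100% of values were whole reads within 0.01 of a read). The log2 fold changes, p-values and q-values deposited by the authors were not used.

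From the nucleus table, of 21915 entries, 4 with a repeated name were left out. Numbers of nuclei and UMIs were recovered from the value steps with Python 3.11.15, as the largest number of nuclei for which each shared value gave a whole UMI total. On simulated nuclei of the same numbers and totals it returned the right numbers. UMIs of genes that could not be decoded are estimates from the level and the mean total. Treatment of doublets is not given either, and nuclei could not be filtered.

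Bulk tables were fitted separately in R 4.3.3 with limma 3.58.1 (eBayes on a mean-variance trend, lmFit without covariates), threshold 0.05, with edgeR 4.0.16 and DESeq2 1.42.0 on recovered reads as alternatives. The fits were tested on simulated data. Nothing says that replicates came from separate animals, so p-values measure the spread between these libraries. Deviations of same-numbered libraries from their label's mean had correlations of -0.04 to 0.13. With 3 libraries per label these cannot settle whether the numbers pair them, and the main fits left pairing out.

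Named genes are the 6 markers, the 30 leading genes, 12 per direction with the largest ratios of KO to WT among the 2000 highest (without Gm and Rik models), the highest members of each list, and called members of the role lists in bulk. The members and the lists were chosen with earlier results of these data known.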

Additional observations from a re-analysis of the deposited data

How the results depend on the processing

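The leading genes of cluster 5, 53 in all, numbered 186 at 2-fold, 19 at 8-fold, 126 from the KO nuclei alone and 94 from the WT nuclei alone, and 49 to 53 at other minimum levels. Between KO and WT nuclei, the 496 genes past 2-fold (270 higher, 226 lower) became 229 (134 and 95) with a pseudocount of 1, 180 (106 and 74) over the 1000 highest genes, 1388 (746 and 642) over the 4000 highest and 5184 (2183 and 3001) over all genes above 0, where genes of 1 UMI enter. Without the 2 KO nuclei of largest total, the log2 ratio was 0.67 for Ngp, -2.51 for Ltf, -1.46 for Chil3 and -0.67 for Camp. The last 3 are so by construction, since by the decoding these nuclei held all their UMIs in KO. In bulk, genes called in libraries labelled KO against WT (589) ran from 108 to 479 without 1 library and were 1241 with DESeq2, and those labelled LD against PBS (620) ran from 135 to 1205 without 1 library and were 1222 with DESeq2. With the replicate number as a block, 822 and 793 genes were called, and of the genes named here only Lilra6 in the libraries labelled KO changed side, to an adjusted p of 0.00982. Of the named bulk genes none changed sign with a call under any alternative. The causes of these changes were not tested. Few nuclei and shallow totals limit the nucleus values, and low counts of neutrophil genes limit the bulk ones.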

Other observations

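Of 14 immediate early and heat shock genes, which respond within minutes to stimulation or to handling of tissue, 9 were at their highest in cluster 5. So were 667 of its 2000 highest genes and 7 of 16 hepatocyte genes. The 14 genes summed to 14.1 UMIs per 10000 in the KO nuclei and 11.7 in the WT nuclei, against 3.73 in KO and 4.86 in WT of cluster 10, the next highest. Several rested on few molecules, with 1 or 2 UMIs in KO for each of Fos, Jun, Jund, Atf3 and Hspa1b. Junb, a subunit of the AP-1 transcription factor, was at 3.24 in KO and 4.09 in WT, and Dusp1, a phosphatase of MAP kinases, at 1.87 in KO and 1.81 in WT. Fosb, Egr1 and Hspa1a were listed at 0 in both genotypes, and none of the 4 members among the 2000 highest genes differed 2-fold between KO and WT.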
